A study of Mus musculus with 36 samples.

Results

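The genes described here are 10 angiogenic ligands and tip cell genes: the ligands Vegfa, Vegfc, Pgf, Angpt1 and Angpt2, the Notch pair Dll4 and Notch1, and the tip cell genes Apln, Esm1 and Pdgfb. They were taken by symbol from the gene tables of both treatments, where all 10 were found among 49585 features. Bladder RNA was sequenced in 36 libraries from C57BL/6 mice, and every animal, controls included, had both adrenal glands removed, which takes away the main source of corticosterone. The CORT groups then received corticosterone, the chief glucocorticoid in mice, at a time set to the inactive phase, and the vehicle groups received vehicle. Each treatment has 6 time labels (4, 8, 12, 16, 20 and 24 h) with 3 libraries at each, so there are 12 groups and 18 libraries per treatment. Time zero, sex and age are not given in the labels. Separate animals are not stated for the replicates of a group; p-values then reflect only the spread between these libraries, part of which may be technical. No group keeps its adrenal glands, so the comparisons are between adrenalectomized bladders with and without hormone replacement.

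New vessels grow from an endothelial tip cell that follows a gradient of VEGF. VEGFA signals through KDR and FLT1, PGF through FLT1, and VEGFC mainly through FLT4. The tip cell presents DLL4 to Notch receptors on its neighbours, which keeps them in the trailing stalk. Angiopoietin 1 activates the receptor TEK and stabilises vessels, while angiopoietin 2 mostly opposes it at the same receptor. Sprouting endothelium also secretes apelin, endocan (the product of Esm1) and PDGFB, the last of which recruits pericytes. In the bladder a capillary bed lies under the urothelium, the lining epithelium.

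A CORT library held 11016413 counts on average and a vehicle library 10682675; by replicate number within a treatment these averages ran from 9591304 to 12311337. The values below are read counts quantile normalized onto 1 scale, on which every library has the same total, so the differences in depth are not kept and a value of a few units rests on a few reads. The urothelial markers Upk1a (15510 in CORT and 13930 in vehicle) and Upk1b (14271 and 12990) and the smooth muscle markers Myh11 (108533 and 112703) and Acta2 (44190 and 44916) were high in both treatments, as the bladder label requires. The extraction text of the labels speaks of blood and of globin removal, and haemoglobin transcripts were present at moderate level (Hbb-bs 1039 and 1255). Libraries correlated at 0.970 to 0.989 over genes, with a mean of 0.983 within groups and 0.982 between them. Of the replicate 2 libraries, 8 bear another library's name in the tables of genes that the authors selected, in some cases a name of the other treatment. By the names of the full tables, these 8 are the replicate 2 libraries of both treatments at 4, 8, 16 and 20 h. Every group at those times therefore includes a library in doubt. The names of the full tables were used. Calls over the day are given with and without these 8 libraries, while most values at single times are given only with them.

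Dll4 was the only one of the 10 genes that passed the test over the day, at a ratio of CORT to vehicle of 0.750. The other 9 did not pass, and Angpt2 and Pdgfb had the next lowest estimates. In the same comparison the receptors for several of these ligands fell. They were Kdr, Flt1, Flt4 and Nrp1 for VEGF, Tek with its partner Tie1 for angiopoietins, Aplnr for apelin and Pdgfrb for PDGFB. General endothelial markers were lower as well, by 0.39 on the log2 scale in their mean, which is about the size of the Dll4 difference. The calls of Dll4 and of all these receptors were lost when the 8 libraries in doubt were left out or took their other names. No gene of the 10 passed the test for a time effect or for a 24 h rhythm in either treatment.

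Expressed per kb of merged exon, so that genes can be compared, the vehicle level was highest for Notch1 at 318 ± 64.2 (SD, n = 18) and next for Vegfa at 99.3 ± 13.8. The ranges of these 2 genes did not overlap each other or, for Vegfa, that of the next gene. Pdgfb (34.8 ± 8.43), Angpt1 (31.7 ± 4.31), Dll4 (30.7 ± 7.34), Vegfc (27.6 ± 4.73) and Apln (20.2 ± 10.6) followed, and then Angpt2 (11.4 ± 3.11) and Pgf (8.53 ± 4.83). From Pdgfb to Pgf each gene differed from the next by less than the larger of their SDs, and the ranges of neighbours overlapped. Esm1 was lowest at 2.40 ± 1.70, beyond an SD from Pgf though their ranges overlapped, a level at which single libraries rest on few reads.

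**Figure D1:**
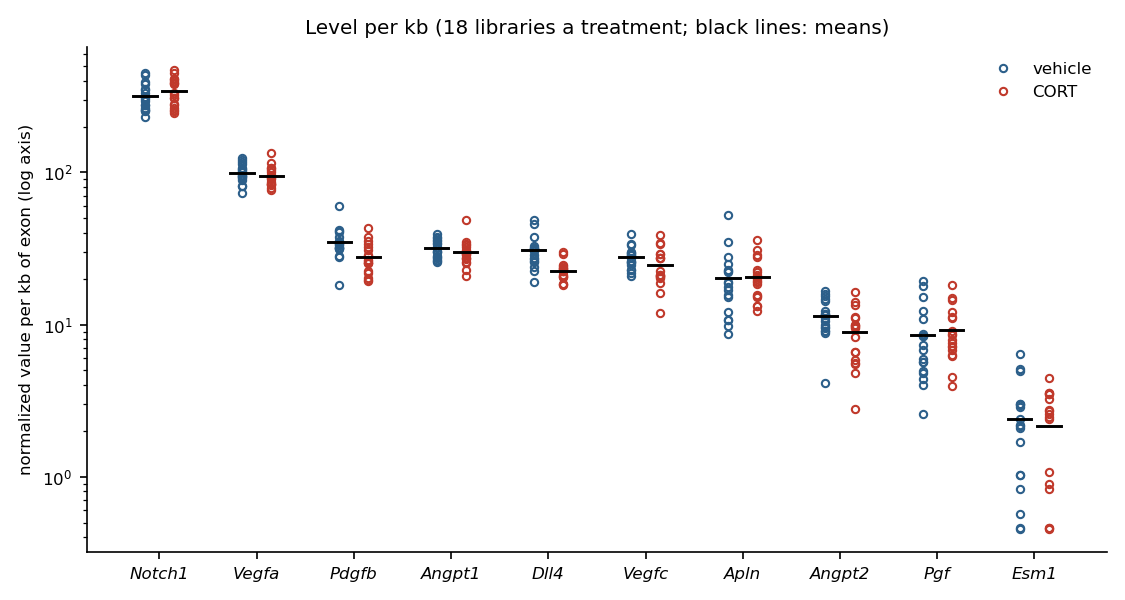
Normalized value per kb of merged exon (log axis) of the 10 genes, ordered by their vehicle mean, with 1 circle per library (18 per treatment) and black lines at the means. Notch1 and Vegfa stand above the others, and Esm1 is lowest; 1 CORT library with an Esm1 value of 0 cannot be drawn on this axis.

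The first group is the VEGF family ligands. Vegfa (GRCm38 chr17:46016993-46032369, minus strand) encodes the main vascular growth factor. Its values ran from 330 to 571 in CORT (median 398) and from 313 to 531 in vehicle (median 421), so the treatments overlapped over almost their whole range. Over the day the log2 difference was -0.06 ± 0.06 (SE), with a 95% interval from -0.19 to 0.06 (limma, adjusted p = 0.599); on the values as deposited it was 0.01. At 8 h the values were 357, 357 and 330 in CORT and 392.2, 444 and 516 in vehicle. The groups did not overlap at that time, as for 10.6% of all features, and the difference of -0.36 ± 0.15 did not pass (adjusted p = 0.250). Over 12 processing alternatives that difference ran from -0.48 to -0.17 and never passed. In CORT the highest group was 16 h, with 408, 571 and 490, and the lowest was 8 h. That span of 0.48 log2 had an unadjusted p of 0.029 and an adjusted p of 0.815.

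Vegfc (chr8:54077606-54187096, plus strand) encodes the ligand that drives lymphatic growth. It ranged from 29.1 to 94.8 in CORT (median 53.6) and from 51.2 to 96.9 in vehicle (median 65.6). The day difference was -0.20 ± 0.11 (adjusted p = 0.298). At 4 h the CORT libraries, at 49.5, 39.7 and 51.0, were all below the vehicle libraries at 64.0, 70.6 and 62.9, a separation shown by 6.29% of features. That difference of -0.49 ± 0.27 did not pass (adjusted p = 0.794). By replicate number the day difference was -0.13, -0.07 and -0.42.

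Pgf (chr12:85166635-85177790, minus strand) encodes placental growth factor, which binds FLT1 but not KDR. Its values ran from 11.4 to 52.9 in CORT and from 7.56 to 56.0 in vehicle, with medians of 23.8 and 20.6. At 20 h the CORT libraries (31.9, 32.6 and 43.7) were all above the vehicle libraries (14.5, 24.3 and 16.6). The 20 h difference was 0.95 ± 0.43 with an unadjusted p of 0.0369 and an adjusted p of 0.792, and 8.55% of all features showed the same separation. Over 12 processing alternatives the 20 h difference ran from 0.35 to 1.22 and never passed. In vehicle the highest group was 16 h (52.2, 56.0 and 25.2) and the lowest 4 h (11.7, 21.3 and 12.8). Over the day the difference was 0.19 ± 0.18 (adjusted p = 0.585), and its estimate came from replicate 3: -0.07 and -0.09 in replicates 1 and 2 against 0.72 in replicate 3. Replicate 3 libraries were registered later than the others and carry no time tag, their time being taken from the titles.

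Of the 2 other VEGF family ligands measured, Vegfb was at 501 in CORT and 480 in vehicle (0.06 ± 0.04, adjusted p = 0.471). Vegfd, a lymphatic ligand, was at 57.9 and 68.5 (-0.26 ± 0.09, adjusted p = 0.113). Neither passed the test.

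More calls were made among the receptors. Of the 5 VEGF receptors and coreceptors, 4 fell and none rose, with a median of -0.33 against 0.02 over all features tested; 2.82% of all 17867 features were called lower over the day. Flt1, the receptor shared by VEGFA and PGF, averaged 467 in CORT and 618 in vehicle (-0.42 ± 0.09, adjusted p = 0.0117). Kdr, the main signalling receptor for VEGFA, averaged 511 and 640 (-0.33 ± 0.09, adjusted p = 0.0268), and the VEGFC receptor Flt4 244.9 and 305.1 (-0.32 ± 0.08, adjusted p = 0.0204). The coreceptor Nrp1 averaged 552 and 700.1 (-0.33 ± 0.05, adjusted p = 0.00037). Nrp2 was at 4805 and 6252, a difference of -0.37 ± 0.13 that did not pass (adjusted p = 0.108). Without the 8 libraries in doubt the median was -0.38 and 0 of the 5 were called.

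The second group is the angiopoietins. Angpt1 (chr15:42424723-42676977, minus strand), the agonist of TEK, ranged from 108 to 254 in CORT and from 135 to 206 in vehicle, with medians of 152 and 162. The day difference was -0.10 ± 0.08 (adjusted p = 0.521). At 12 h the CORT libraries (151, 142 and 153) lay below all vehicle libraries (155, 175 and 167), which 3.34% of features also did. That gap was -0.15 ± 0.19 and did not pass.

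Angpt2 (chr8:18690263-18741562, minus strand), the context-dependent antagonist, ranged from 10.3 to 60.2 in CORT (median 35.4) and from 15.1 to 61.3 in vehicle (median 41.5). The CORT mean was lower at 6 of 6 times, yet the groups overlapped at every time. The day difference of -0.40 ± 0.19 was nearly as large as that of Dll4 but its error was larger, and it did not pass (unadjusted p = 0.0473, adjusted p = 0.241). At 4 h the values were 40.8, 30.4 and 24.5 in CORT and 56.8, 61.3 and 34.9 in vehicle. At 16 h, 1 library of each treatment was far below its group, at 10.3 in CORT and 15.1 in vehicle. Angpt2 lies within Mcph1 (chr8:18595131-18803189) on the opposite strand. Mcph1 averaged 131, more than Angpt2, and the sources used here do not say whether counting used strand, so Angpt2 values are uncertain. Mcph1 itself differed by -0.00 ± 0.06 (adjusted p = 0.998).

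The ratio of Angpt2 to Angpt1 in a library is often used to express the balance of the TEK ligands. It ran from 0.0950 to 0.356 in CORT (median 0.215) and from 0.106 to 0.420 in vehicle (median 0.253). The CORT ratio was 0.811 times the vehicle ratio over the day and was lower at 4 of 6 times. This did not pass a two-sided permutation test of treatment within time (100000 permutations, p = 0.0644). On the values as deposited, without the common scale, the log2 difference was -0.36 in place of -0.30 and p was 0.0298. Of the 8 processing alternatives fixed for this ratio, the other 7 did not pass. Over the 8 the difference ran from -0.36 to -0.16, with permutation p up to 0.340.

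Of the TIE receptors and their partners, 3 of 5 fell and none rose, with a median of -0.33. Tek, the receptor of both angiopoietins, averaged 297 and 375 (-0.33 ± 0.06, adjusted p = 0.00233), and its partner Tie1 averaged 330.2 and 452 (-0.45 ± 0.08, adjusted p = 0.00228). Ptprb, the phosphatase that restrains TEK, averaged 1332 and 1821 (-0.47 ± 0.09, adjusted p = 0.00508). Angpt4 (23.4 and 31.9) and Angptl1 (6.33 and 5.95) did not pass. None of the 5 was called without the 8 libraries, where the median was -0.34. With all libraries 2.82% of all features were called lower over the day.

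**Figure D2:**
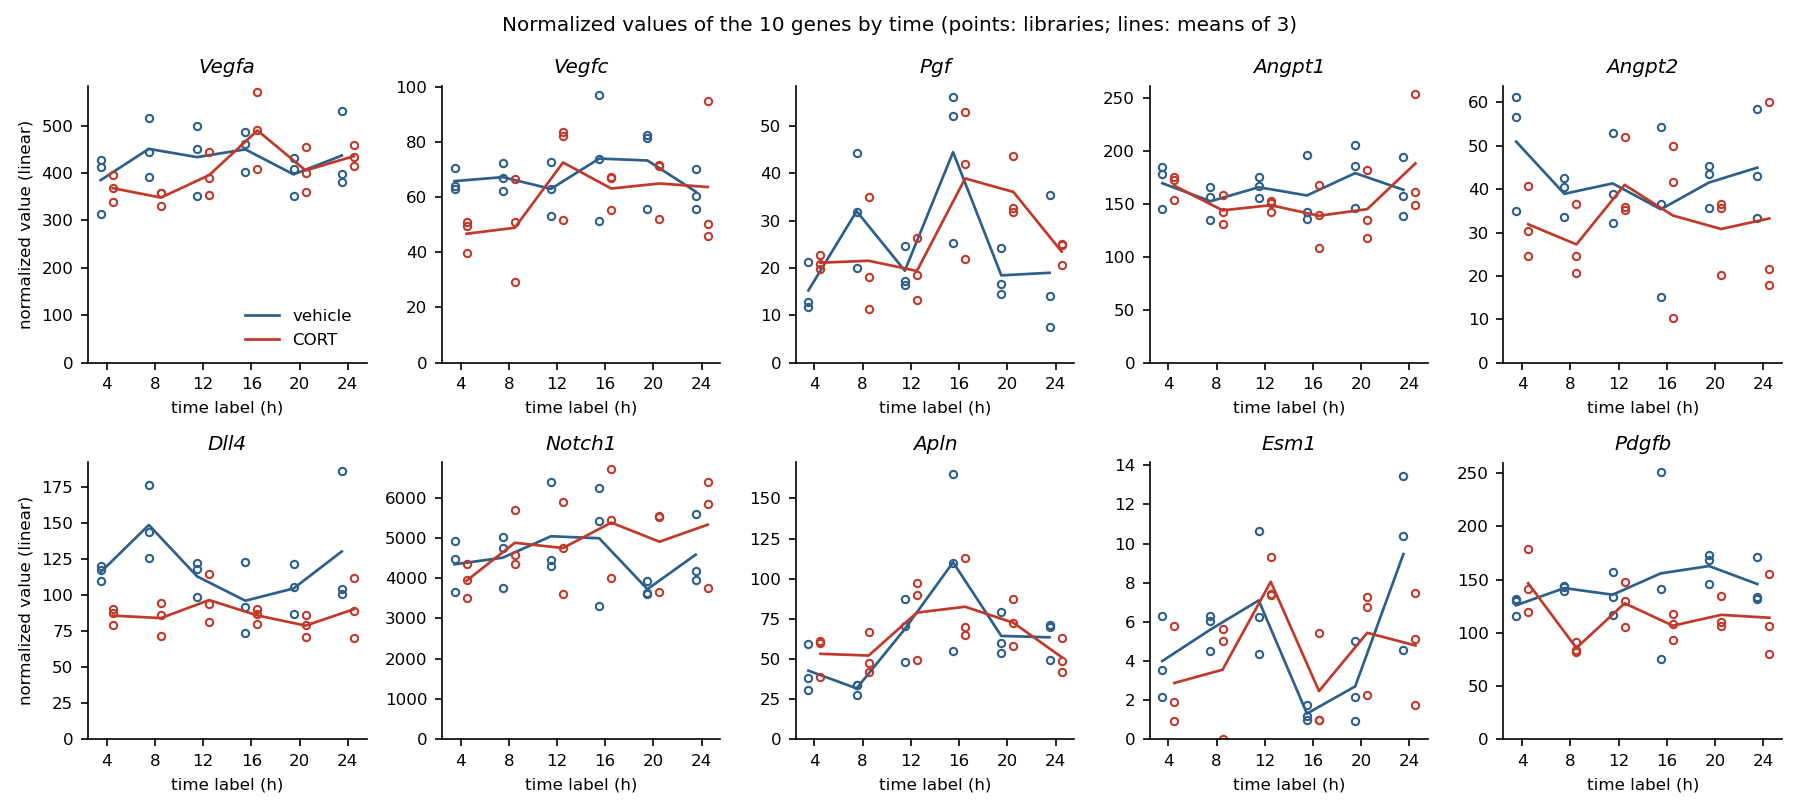
Normalized value (linear, axis from 0) of each of the 10 genes against the time label, with circles for libraries and lines through the means of 3, vehicle in blue and CORT in red, set slightly apart. The Dll4 line of CORT lies below that of vehicle at all 6 times, and the vehicle line of Apln peaks at 16 h.

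Dll4 (chr2:119325784-119335962, plus strand) encodes the Notch ligand that tip cells present. It was at 90.7, 87.5 and 79.3 in CORT at 4 h against 117, 121 and 110.1 in vehicle. At 8 h it was at 71.6, 86.1 and 94.7 against 126, 176 and 144, the widest gap of the 6 times. At 12 h it was at 93.9, 115 and 81.3 against 98.8, 122 and 118. The groups were apart at 4 and 8 h, as for 6.29% and 10.6% of all features, and met at 12 h. At 16 h the values were 80.2, 87.0 and 90.7 against 123, 91.8 and 73.7, and at 20 h they were 70.6, 86.5 and 79.5 against 121, 106 and 87.0. At 24 h they were 112, 70.03 and 88.9 against 186, 104 and 101. The groups overlapped at 16 and 24 h and were narrowly apart at 20 h, where the highest CORT value was 86.5 and the lowest vehicle value 87.0. Separation with CORT lower was shown by 6.05% of features at 20 h.

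Over all 18 libraries Dll4 averaged 87.0 ± 12.2 (SD) in CORT and 118 ± 28.3 in vehicle. The log2 difference was -0.42 ± 0.08 (SE), with a 95% interval from -0.59 to -0.24 (limma over 36 libraries, adjusted p = 0.00547). The CORT mean was lower at 6 of 6 times. Across the 10 genes this was 1 call, and over all features 4.11% were called in that comparison, 230 higher and 504 lower in CORT (2246 and 500 on the values as deposited, where Dll4 was -0.37 with an adjusted p of 0.0082). By replicate number the difference was -0.56, -0.42 and -0.27, so each set of 12 libraries had the same sign. Leaving out any single library of the 36 kept the call, with adjusted p between 0.00269 and 0.0117. Without the 8 libraries in doubt the difference was -0.41 with an adjusted p of 0.183, and under their other names it was -0.38 with an adjusted p of 0.401; the size stayed and the call did not.

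At single times the Dll4 difference was -0.43 at 4 h, -0.81 at 8 h, -0.23 at 12 h, -0.13 at 16 h, -0.40 at 20 h and -0.49 at 24 h, each with an SE of 0.21. The 8 h value came closest to the threshold (adjusted p = 0.0547), and it passed under 5 of the 12 processing alternatives fixed for it. Under the other names of the 8 libraries the 8 h value was -0.37 (adjusted p = 0.998). None of the 10 genes passed at any single time. The share of all features called was 0.162% at 4 h, 0.795% at 8 h, 0.0448% at 12 h, 0.0112% at 16 h, 0% at 20 h and 0.0336% at 24 h, so single times called few features of any kind. At 20 h, where limma called 0 features, 1073 had an unadjusted p under 0.05.

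**Figure D3:**
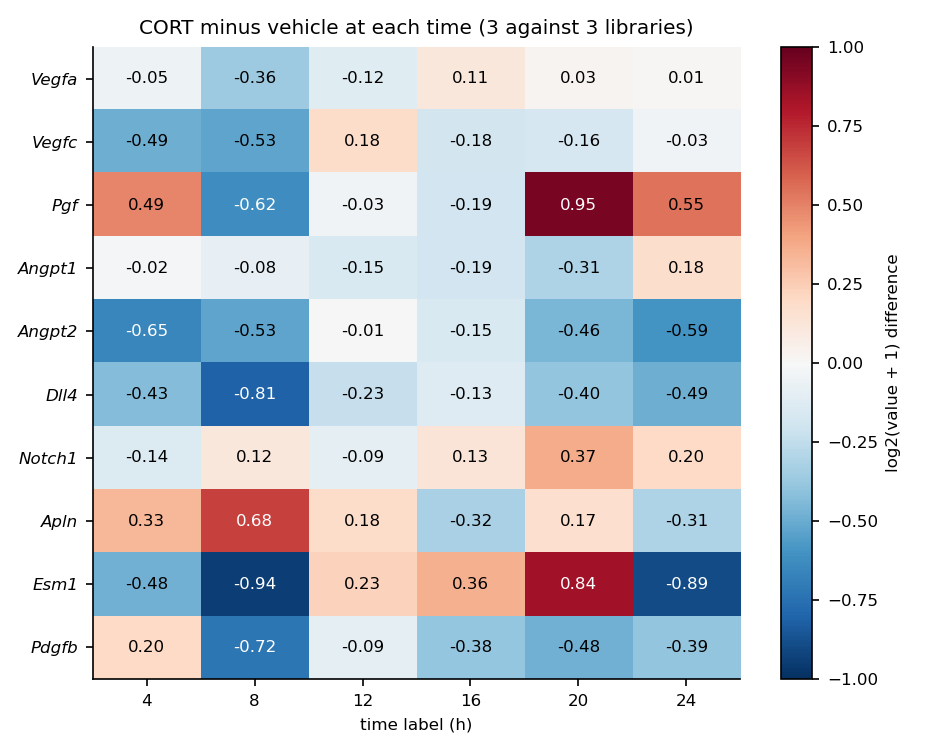
Difference between CORT and vehicle in log2(value + 1) for each of the 10 genes (rows) at each time label (columns), 3 against 3 libraries, with the value in each cell. Dll4 and Angpt2 are negative at all 6 times, and 8 h has the most negative column, with a median of -0.53 over the 10 genes.

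The 250 bases before the Dll4 start (RefSeq, GRCm38.p6, chr2:119325534-119325783) are shown because Dll4 is the gene that passed. They are set beside those of Vegfa (chr17:46032378-46032627, minus strand), the ligand upstream of it in sprouting, and of Esm1 (chr13:113209409-113209658), another tip cell gene, both of which did not pass. Capitals mark matches, on either strand, to any of 5 motifs searched: AGAACA, the core of the glucocorticoid receptor element; ACGTG, a core of hypoxia-inducible factor sites, with GCGTG as its second form; CACGTG, the E-box of clock factors, which also contains the first hypoxia core; and TGGGAA, the RBPJ site of Notch signalling.
Dll4: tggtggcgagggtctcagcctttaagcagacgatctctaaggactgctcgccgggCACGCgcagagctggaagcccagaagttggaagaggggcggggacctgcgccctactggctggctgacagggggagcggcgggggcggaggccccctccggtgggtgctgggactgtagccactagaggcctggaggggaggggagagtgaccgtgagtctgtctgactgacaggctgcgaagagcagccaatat
Vegfa: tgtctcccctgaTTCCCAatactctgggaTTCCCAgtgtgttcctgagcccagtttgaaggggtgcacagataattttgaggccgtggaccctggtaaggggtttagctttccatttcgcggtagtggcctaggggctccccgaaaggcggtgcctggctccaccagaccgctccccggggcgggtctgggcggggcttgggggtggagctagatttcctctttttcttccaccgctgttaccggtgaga
Esm1: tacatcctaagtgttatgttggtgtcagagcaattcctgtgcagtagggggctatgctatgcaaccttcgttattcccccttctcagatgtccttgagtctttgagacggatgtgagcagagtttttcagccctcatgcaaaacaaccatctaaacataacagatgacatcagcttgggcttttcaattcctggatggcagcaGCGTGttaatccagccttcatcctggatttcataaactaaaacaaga
The Dll4 stretch held 1 match, GCGTG read on the minus strand at 195 to 191 bases before the start, and Esm1 held GCGTG at 47 to 43 bases before it. Vegfa held TGGGAA on the other strand at 238 to 233 and 221 to 216 bases. A RefSeq entry was found for 7 of the 10 genes, of which those of Notch1 and Pgf start 12841 and 477 bases downstream of the GENCODE gene start. None of the 7 held the glucocorticoid receptor core, the first hypoxia core or the E-box, which occur in 16.1%, 16.6% and 6.02% of 32851 promoter stretches of this length. GCGTG was in 3 of the 7, Pgf among them, against 28.2% of all, and TGGGAA in 1 against 21.6%. With shares of this kind, a presence or absence in single stretches is a description only.

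Notch1 (chr2:26457903-26516663, minus strand) encodes a receptor for DLL4 that is also used widely in epithelia. It ran from 3499 to 6701 in CORT (median 4663) and from 3302 to 6380 in vehicle (median 4368). The day difference was 0.10 ± 0.10 (adjusted p = 0.625) and the groups overlapped at all 6 times, so the receptor's level was not shown to differ. Whether Notch1 and Dll4 differed from each other in this was not tested. Across the 36 libraries its most similar genes were Ptprf (r = 0.91) and Nectin1 (r = 0.88), and its r with the mean of the endothelial markers was -0.48.

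Of 13 other Notch ligands, receptors and targets, 2 fell and none rose, with a median of -0.08; on the values as deposited 1 rose. These were Heyl, a Notch target, at 88.6 in CORT and 132 in vehicle (-0.57 ± 0.13, adjusted p = 0.0158), and Notch4, a receptor largely of endothelium, at 115 and 146 (-0.36 ± 0.10, adjusted p = 0.0432). The ligands Jag1 (1358 and 1352) and Dll1 (125 and 133), and the targets Hey1 (42.5 and 46.6) and Hes1 (1291 and 1067), did not pass. Neither call was made without the 8 libraries. Over all features 2.82% were called lower over the day.

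Apln (chrX:48025146-48034853, minus strand) encodes apelin, a secreted peptide of tip cells. In vehicle it was lowest at 8 h, with 27.4, 33.8 and 33.7, and highest at 16 h, with 165, 109.9 and 55.2. The 3 libraries at 16 h thus differed widely among themselves. The vehicle time span was 1.64 log2 (unadjusted p = 0.00601, adjusted p = 0.176). In CORT the values at 8 h were 47.7, 41.6 and 66.9, all above the vehicle values at that time, as for 12.6% of features, and at 16 h they were 69.9, 113 and 64.9. The 8 h difference was 0.68 ± 0.33 (adjusted p = 0.332).

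A 24 h cosine fitted to Apln had an amplitude (mean to peak) of 0.66 ± 0.15 log2 with its peak at 17.6 h in vehicle (adjusted p = 0.130) and of 0.38 ± 0.11 with its peak at 15.7 h in CORT (adjusted p = 0.718). Neither passed, and the difference of rhythm between treatments had an unadjusted p of 0.195. None of the 10 genes passed for a rhythm, where 0.429% of features were called in vehicle, 0% in CORT (1055 features at an unadjusted p under 0.05) and 0.106% in the difference. None passed for a time effect either, with 0.396% of features called in vehicle and 0.0167% in CORT. At an unadjusted p under 0.05 the counts of the 10 were 3 for the vehicle time effect (Apln, Esm1 and Pgf), with 13.8% of all features, and 1 for the CORT time effect (Vegfa), with 5.58%. They were 1 for the vehicle rhythm (Apln), with 12.6% of features, and 3 for the CORT rhythm (Apln, Pgf and Vegfa), with 5.89%.

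In CORT the cosine fits of Pgf and Vegfa peaked at 18.9 and 18.4 h, with amplitudes of 0.48 ± 0.15 and 0.18 ± 0.06 and adjusted p of 0.746 and 0.760. The vehicle amplitude of Vegfa was 0.07 ± 0.07. Dll4 had an amplitude of 0.23 ± 0.10 in vehicle, with its peak at 5.74 h, and of 0.06 ± 0.07 in CORT. The test of that difference had an unadjusted p of 0.198, so a flatter Dll4 profile in CORT was not shown.

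The authors' deposited tables of selected genes held 3 of the 10. Esm1 was in a set chosen over 18 columns named CORT, and Pgf and Apln were in a set chosen over 12 columns named vehicle. By the names of the full tables, 2 of those 18 columns hold vehicle libraries and 2 hold CORT libraries of another time. Which libraries the 12 columns hold was not checked. As those choices rest on the libraries analysed here, they add no independent support.

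The apelin receptor Aplnr, found mainly on endothelium, had the largest difference among the receptors tested. It averaged 88.9 in CORT and 166.2 in vehicle (-0.85 ± 0.14, adjusted p = 0.00168), while its peptide Apln differed by 0.12 ± 0.14 (adjusted p = 0.656). Without the 8 libraries neither gene of this pair of lists was called. Apela, the second ligand, was near the limit of detection at 2.65 and 1.22 (0.74 ± 0.23, adjusted p = 0.0642), and was called higher on the values as deposited.

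Esm1 (chr13:113209659-113218098, plus strand) encodes endocan, a proteoglycan of tip cells. At 16 h it was at 1.19, 1.75 and 0.972 in vehicle and 5.42, 0.972 and 0.972 in CORT. At 24 h it was at 13.5, 4.56 and 10.4 in vehicle and 7.47, 5.14 and 1.75 in CORT, and 1 CORT library at 8 h had 0. Vehicle was lowest at 16 h, where values rest on few reads, and highest at 24 h. That span of 2.09 log2 did not pass (limma, unadjusted p = 0.00308, adjusted p = 0.134). The day difference was -0.15 ± 0.25, with an interval from -0.67 to 0.38 that leaves its direction undetermined at this depth (adjusted p = 0.798). Gzmk overlaps Esm1 on the opposite strand but averaged 0.396.

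Pdgfb (chr15:79995874-80014977, minus strand) encodes the ligand by which endothelium recruits pericytes. At 8 h it was at 84.2, 90.8 and 81.8 in CORT and 139, 143 and 144 in vehicle, tight groups that lay well apart. At 20 h it was at 134, 106 and 109.97 in CORT and 168.5, 173 and 146 in vehicle, also apart. At 4 h the order was turned, with 119.5, 179 and 141 in CORT and 132, 129.6 and 116 in vehicle. The 8 h difference was -0.72 ± 0.26 (unadjusted p = 0.0106, adjusted p = 0.177). Over 12 processing alternatives it ran from -0.76 to -0.28, with adjusted p from 0.0329 to 0.998 (limma). Separation with CORT lower was seen for 10.6% of features at 8 h and 6.05% at 20 h.

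Over the day Pdgfb differed by -0.31 ± 0.11 (adjusted p = 0.0972), at 116 ± 27.3 (SD, n = 18) in CORT and 145 ± 35.1 in vehicle, and the CORT mean was lower at 5 of 6 times. The vehicle 16 h libraries held both its highest and its lowest vehicle value, 251 in replicate 1 and 75.2 in replicate 3. Leaving out that replicate 3 library gave -0.38 with an adjusted p of 0.00847, and leaving out CORT 24 h replicate 1 gave -0.35 with an adjusted p of 0.0421. These were the only 2 of the 36 single omissions that passed. Over 12 processing alternatives the day difference of Pdgfb ran from -0.36 to -0.21, with adjusted p from 0.00949 to 0.724 (limma). Of these alternatives only library weights passed. The same vehicle 16 h replicate 3 library also had the lowest vehicle value of Dll4, Angpt2 and Vegfc.

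Of 5 other PDGF ligands and receptors, 2 fell and none rose, with a median of -0.18. Pdgfrb, the receptor on pericytes and other mesenchyme, averaged 943 and 1222 (-0.38 ± 0.07, adjusted p = 0.00282), and the ligand Pdgfc averaged 230.3 and 295 (-0.38 ± 0.10, adjusted p = 0.0366). Pdgfa (376 and 406), Pdgfd (635 and 662) and Pdgfra (2825 and 3222) did not pass. None of the 5 was called without the 8 libraries. With all libraries 2.82% of all features were called lower.

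**Figure D4:**
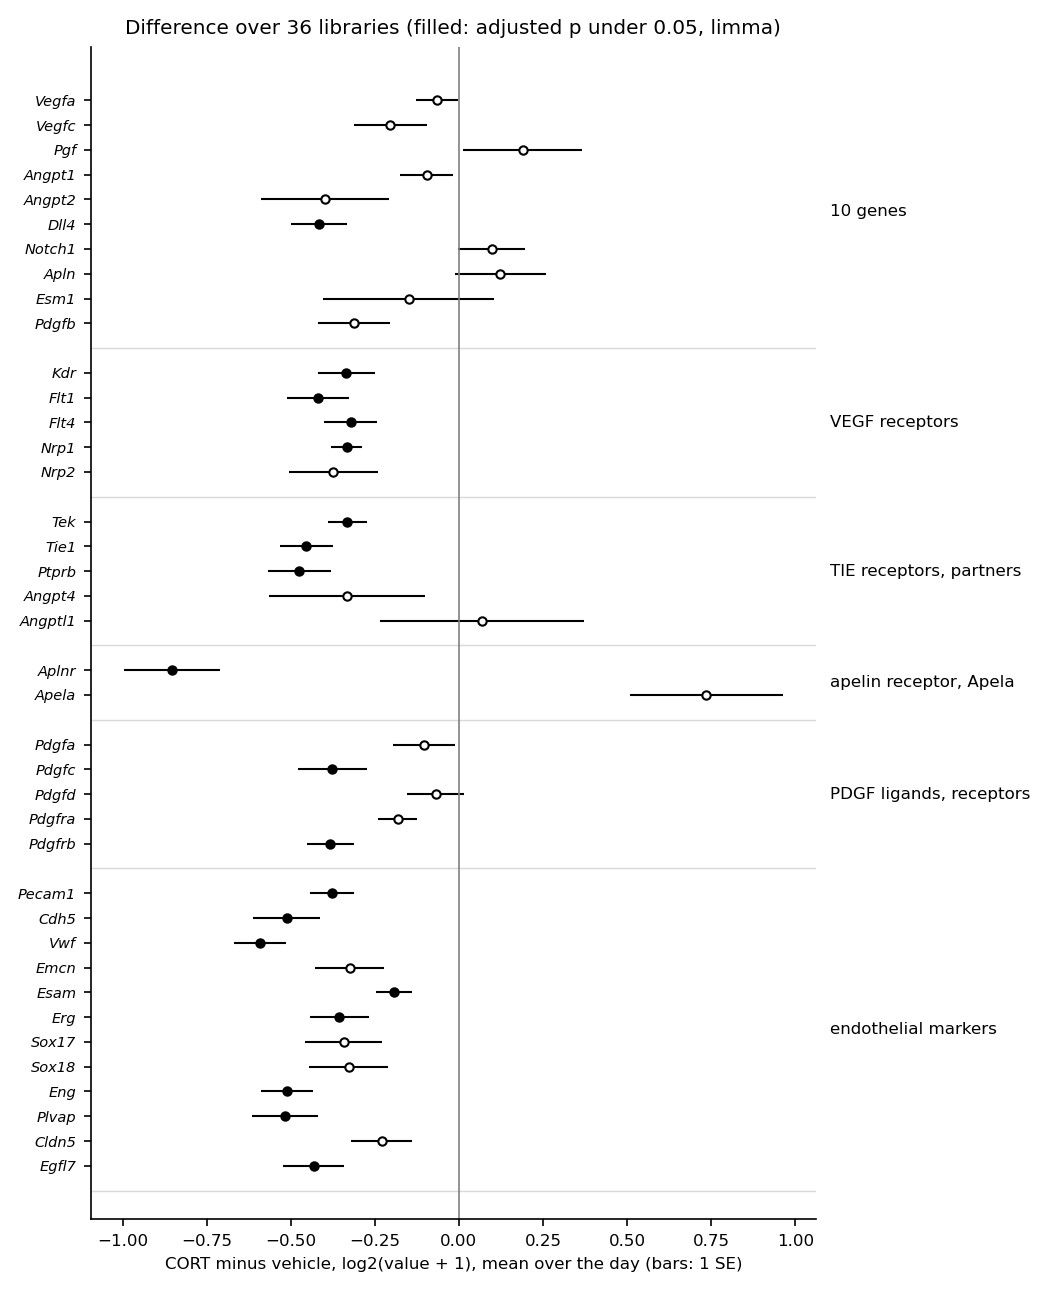
Difference between CORT and vehicle over the day in log2(value + 1) for the 10 genes, their receptors and partners, and 12 endothelial markers; bars are 1 SE and filled points passed the test (36 libraries). Dll4 is the filled point among the 10, Aplnr lies lowest of all, and the endothelial markers are all left of 0.

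Among 15 other genes of tip and stalk cells, 2 fell and none rose, with a median of -0.16: Robo4, an endothelial guidance receptor (148 and 197, adjusted p = 0.0186), and Ephb4, a receptor of veins (748 and 863, adjusted p = 0.0361). Of 10 angiostatic and vessel growth factors, 4 fell and none rose, with a median of -0.27. They were Serpinf1, an inhibitor of vessel growth (584 and 762, adjusted p = 0.00668), Spry4, an inhibitor of receptor tyrosine kinase signalling (116 and 166, adjusted p = 0.0303), and the inhibitors Vash1 (50.8 and 63.5, adjusted p = 0.0355) and Thbs2 (4180 and 5412, adjusted p = 0.042). Of 14 hypoxia factors and targets, 1 rose and 1 fell, with a median of -0.02 that was 0.05 on the values as deposited. Epas1, an oxygen-regulated factor strong in endothelium, averaged 1543 and 1923 (adjusted p = 0.011), and the metabolic target Pdk1 averaged 1135 and 997 (adjusted p = 0.0311). Counts in all 3 of these lists were 0 without the 8 libraries. Over all features 2.82% were called lower over the day and 4.11% in either direction.

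Endothelial markers moved with these results. Of 12, 8 fell and none rose, with a median of -0.37, and Vwf (893 in CORT and 1316 in vehicle), Pecam1 (758 and 983) and Eng (597 and 844) were the most abundant. Their summed value ran from 2645 to 4660 in CORT (median 3899) and from 3418 to 6604 in vehicle (median 5385), and no marker was at 0 in most libraries. In whole bladder, fewer endothelial cells and less RNA per cell cannot be told apart. The mean of the markers was lower by 0.23, 0.71, 0.38, 0.11, 0.39 and 0.52 on the log2 scale at 4, 8, 12, 16, 20 and 24 h, so the markers, like Dll4, had their widest gap at 8 h and their narrowest at 16 h. Without the 8 libraries the marker median was -0.37 and 1 of 12 was called. With all libraries 2.82% of all features were called lower over the day.

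Across the 36 libraries Dll4 had r = 0.79 with the marker mean, Pdgfb 0.72 and Angpt2 0.67, and Vegfa 0.21, Pgf -0.10 and Apln -0.15; the points share normalization and treatment, so these are descriptions. The gene most like Dll4 among 12150 features was Cdh5, the cadherin of endothelial junctions and itself one of the 12 markers (r = 0.80, rho = 0.84, and r = 0.81 without the 2 libraries farthest out), followed by Mmrn2 (r = 0.80). That for Pdgfb was Ptprb (r = 0.81), followed by Npr3 (r = 0.80). With the marker mean as a covariate, a fit added after the data were seen, the treatment difference was -0.07 ± 0.10 for Dll4 (adjusted p = 0.988), 0.10 ± 0.13 for Pdgfb and 0.32 ± 0.23 for Angpt2. In that fit 2 features of 17867 were called, against 734 without the covariate. The marker mean itself differed by -0.39 between the treatments, so this fit cannot separate the marker level from the treatment. The part of the markers in the Dll4 result was not tested.

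**Figure D5:**
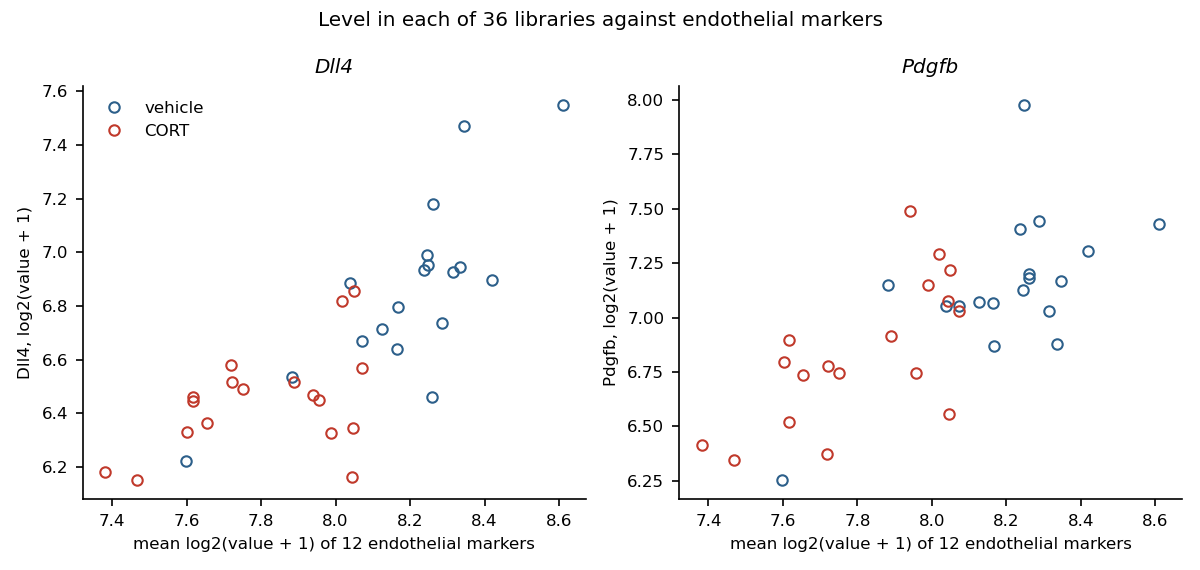
Level of Dll4 (left) and Pdgfb (right) in log2(value + 1) against the mean of 12 endothelial markers, 1 circle per library, vehicle in blue and CORT in red. Libraries with lower marker means have lower Dll4 (r = 0.79) and Pdgfb (r = 0.72), and most CORT libraries lie at the lower left.

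The other genes had different nearest neighbours. Apln was most like Cdk18 and Atad3a (both r = 0.80), Pgf like Mgat2 (r = 0.80) and Srm (r = 0.77), and Vegfc like Nr3c1, the glucocorticoid receptor (r = 0.78), and Hdac7 (r = 0.76). Angpt2 was most like Gpm6b and C1qtnf7 (both r = 0.76), Vegfa like Ttll12 (r = 0.71) and Has3 (r = 0.69), and Angpt1 like Appl1 (r = 0.68) and Evi5 (r = 0.67). Esm1 had the weakest neighbours, C130074G19Rik and Nxpe4 (both r = 0.62). Each r is over 36 libraries that share normalization, so these are descriptions.

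Markers of most other cell types gave no call. Lymphatic (5 genes), smooth muscle (6), urothelial (7), adipocyte (5), erythroid (6), macrophage (6) and T and NK cell (6) markers had none, with medians from -0.22 to 0.20, although 3 urothelial markers were called higher on the values as deposited. Of 6 mural cell markers 1 fell (Ndufa4l2, 53.9 and 72.0). Their median was -0.33, near that of the endothelial markers (-0.37), and 5 of the 6 estimates were negative. The exception was Rgs5, the most abundant of the 6, at 6944 in CORT and 6391 in vehicle (0.12 ± 0.07, limma adjusted p = 0.322). Summed over these 6 genes, CORT libraries held 8782 to 11510 and vehicle libraries 8960 to 11094, with medians of 9726 and 9677. The mural sum was thus not shown to be lower in CORT. Of 7 fibroblast markers 3 fell (Col1a1, Col1a2 and Pi16), with a median of -0.18 and 5 of the 7 estimates negative. The fibroblast sum ran from 89618 to 160456 in CORT and from 102620 to 218699 in vehicle. None of these mural and fibroblast calls was made without the 8 libraries. With all libraries 2.82% of all features were called lower over the day. All 6 cell division genes fell, with a median of -0.90; Mki67 averaged 175 in CORT and 366 in vehicle, and 1 of the 6 was called without the 8 libraries. Of 10 glucocorticoid-responsive genes none passed (1 rose on the values as deposited). Fkbp5 averaged 899 ± 804 (SD) in CORT and 552 ± 155 in vehicle (0.40 ± 0.13 SE, limma adjusted p = 0.0928). The sum of these 10 ran from 4445 to 22441 in CORT (median 5943) and from 4799 to 8543 in vehicle (median 6584). Such uneven CORT values are not shown by a mean over the day. The part of these cell types in the results for the 10 genes was not tested.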

How the data were processed

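Bladder RNA was rRNA-depleted and made into directional libraries, per the labels' protocols. The submitters' processing notes name the build mm10; aligner and counter: not given in the sources used here. Each deposited value is a linear signal of 1 gene: per the file headers and values, the authors quantile normalized counts over the 12 libraries of each table, separately per treatment and pair of replicate numbers. The authors also deposited log2(value + 1) tables of selected genes. A common scale for all 36 libraries was rebuilt by averaging the sorted values of the tables and ranking each library from its own 2 tables. Values were analysed as log2(value + 1), so differences of low genes are understated. Features were left out where over 50% of a fit's libraries had the lowest value. All 10 genes passed, as did all list genes found in the tables.

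Tests were limma 3.58.1 in R 4.3.3 with Benjamini-Hochberg adjustment over all features at 0.05, with 12 group means for treatment and a moderated F test for time and for a cosine of 24 h; ratios of CORT to vehicle are on the log2(value + 1) scale. The Angpt2 to Angpt1 ratio used permutations. The scripts were tested on simulated data. Sequences are RefSeq's; positions and exon lengths are from GENCODE M21 (GRCm38, the assembly of mm10).

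The 10 genes and all lists were chosen with earlier results of these data known. Named were all 10 genes, every receptor and partner, at most 4 genes by p from other lists, at most 3 by level from marker lists, and the 2 features most correlated with each gene (mean value of 32 or more). Exceptions, named after their values were seen, are Mcph1, Gzmk, Jag1, Dll1, Hey1, Hes1, Fkbp5, Vegfb, Vegfd, Ndufa4l2 and Pi16. Alternatives covered filters, pseudocount, scale, weights, the 8 names, the replicate block and left-out libraries.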

Additional observations from a re-analysis of the deposited data

How the results depend on the processing

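The day count of 734 features was 294 without a filter on low values, 2746 on the values as deposited, 3145 with library weights and 6 without the 8 libraries with another name; under their other names limma called 0, with 1434 features at an unadjusted p under 0.05. It was 1 to 411 when a replicate number was left out (1 without replicate 2), 408 to 1282 when 1 library was left out, and 2 with the endothelial marker mean as a covariate; this covariate and the single left-out libraries were added after the data were examined. Calls rising in CORT made up 31.3% as reported and 81.8% on the values as deposited. Of the 10 genes, 1 was called over the day as reported, 2 with library weights, 0 without the 8 libraries, under their other names and with the covariate, 0 to 1 when a replicate number was left out, and 1 to 2 when 1 library was. Dll4 had an adjusted p of 0.0234, 0.185 and 0.0976 without replicates 1, 2 and 3, and differences of -0.34, -0.42 and -0.49. At 8 h, 0 of the 10 was called as reported, 1 with a mean value of 10 or more, with a pseudocount of 4 and with an intensity trend, 2 with library weights, and 0 to 1 when 1 library was left out. The vehicle time effect called 3 of the 10 with library weights and 0 to 1 when 1 library was left out. The labels do not say that replicate numbers pair libraries across treatments, and they were not used as pairs: same-numbered deviations correlated at -0.10 to 0.26, with 5 of 18 over 0.1. Of the 18, 11 correlated best with their own number, a hint from the data, not the design. With a replicate block 1240 features were called over the day, Dll4 stayed at -0.42 (adjusted p = 0.0053), and at 8 h 1 of the 10 was called. The sign of uncalled genes turned for Vegfa on the values as deposited (0.0085) and with the covariate (0.0116), for Pgf without replicate 3 (-0.077, against 0.328 at most without another replicate number), and for Notch1 under the other names (-0.0035) and with the covariate (-0.24). With the covariate it also turned for Vegfc (0.13), Angpt1 (0.14), Angpt2 (0.32), Esm1 (0.42) and Pdgfb (0.10 over the day, 0.021 at 8 h). The log2 Angpt2 to Angpt1 difference was -0.36 (permutation p = 0.0298) on the values as deposited and -0.37 to -0.22 when 1 library was left out, with p from 0.0172 to 0.182. Over its 8 processing alternatives that difference ran from -0.36 to -0.16, with permutation p up to 0.340. The cause of these shifts was not tested. Genes at a few units, such as Esm1, are limited by depth.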
